A study of Arabidopsis thaliana with 30 samples.

Results

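Wide chromatin regions were analysed that carried the SWI/SNF ATPase BRM in the BRM-GFP plants and had no BRM peak left in the brd1/2/13 triple mutant of *Arabidopsis thaliana*. A BRM-GFP region was a merged interval of overlapping peaks that held a peak of both BRM-GFP lists, on chromosomes 1 to 5. The regions were selected on 3 properties: a width of at least 1500 bp, an overlap with an H4K5ac peak of the wild type (WT) in either list, and no overlap with a peak in either list of BRM-GFP in brd1/2/13. This rule took 440 of 13638 BRM-GFP regions, which are called lost regions below. They were set against 2578 retained regions of the same width and acetylation, in which both mutant lists had a peak. A further 400 such regions had a peak in 1 mutant list and are called partly retained.

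The study used ChIP-seq of 14-day-old seedlings, with 20 immunoprecipitated samples in 10 groups of 2 and 10 inputs. GFP-tagged BRM, BRD1, BRD2, BRD13 and BRD2-dBromo were precipitated, the last of which points by its name to a changed bromodomain in BRD2, and BRM-GFP was precipitated also in brd1/2/13. The series' design text names brm-1 seedlings for BRM, brd1 for BRD1 and brd2 for BRD2, but the samples' own labels give no such genotype for any GFP line, and none was found for BRD13-GFP or BRD2-dBromo-GFP. H4K5ac and H4K8ac, acetylated lysines of histone H4, were profiled in WT and brd1/2/13. The antibody field of these acetylation samples names GFP, and the sample titles, which name the marks, were followed. The tissue was the whole seedling, so a peak averages over its cell types. The sources used here name neither a treatment, nor the promoters that drive the GFP fusions, nor how many transgenic lines were used. The titles number the 2 samples of a group as bio1 and bio2, which names them biological replicates, but no label says how they were grown or that they came from separate cultures. The p-values thus reflect variation among these particular samples, part of which may be technical.

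BRM is the motor subunit of a plant SWI/SNF complex, which uses ATP to slide or evict nucleosomes and so opens chromatin at promoters. BRD1, BRD2 and BRD13 are bromodomain subunits of the same complex, and a bromodomain is a fold that binds acetylated lysine. H4K5ac and H4K8ac mark the first nucleosomes of transcribed genes.

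To show what the BRM-GFP summits of lost regions look like, the bases up to 60 bp on each side of the mean summit of both lists are printed for the 6 best-ranked lost regions whose window holds no annotated UTR. The rank of a region was the worse of its ranks by peak score in both BRM-GFP lists. All are the plus strand of TAIR10, read from the TAIR10.1 sequence of RefSeq. Capitals mark a match to any of the 8 motifs searched, which here were a TATA box (TATAAA or TTTATA) and a tract of 8 or more A.
AT1G23040, chr1:8165180-8165300, coding exon, 458 bp past the gene start: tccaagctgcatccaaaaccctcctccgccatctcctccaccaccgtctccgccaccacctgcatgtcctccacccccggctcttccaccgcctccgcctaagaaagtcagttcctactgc
RD21B, chr5:17271735-17271855, coding exon, 503 bp past the gene start: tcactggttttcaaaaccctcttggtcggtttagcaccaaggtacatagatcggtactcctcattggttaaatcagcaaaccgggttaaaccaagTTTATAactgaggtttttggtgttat
AT5G28300, chr5:10293884-10294004, coding exon, 1339 bp past the gene start: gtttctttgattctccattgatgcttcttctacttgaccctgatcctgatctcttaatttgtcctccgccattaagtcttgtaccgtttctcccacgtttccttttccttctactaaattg
AT3G47800, chr3:17635056-17635176, coding exon, 312 bp past the gene start: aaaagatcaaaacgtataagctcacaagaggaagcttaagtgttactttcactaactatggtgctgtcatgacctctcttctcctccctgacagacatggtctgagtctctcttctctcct
ERD9, chr1:3398744-3398864, upstream of the gene, at -446 bp from its start: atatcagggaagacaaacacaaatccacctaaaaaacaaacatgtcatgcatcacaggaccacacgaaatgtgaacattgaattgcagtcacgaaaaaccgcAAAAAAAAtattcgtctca
AT3G22070, chr3:7775652-7775772, coding exon, 397 bp past the gene start: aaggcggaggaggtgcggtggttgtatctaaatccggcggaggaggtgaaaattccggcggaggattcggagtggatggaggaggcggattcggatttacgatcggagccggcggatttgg
The best-ranked retained regions are shown by the same rule for comparison.
GATA1, chr3:8686201-8686321, intron or other gene body, 522 bp past the gene start: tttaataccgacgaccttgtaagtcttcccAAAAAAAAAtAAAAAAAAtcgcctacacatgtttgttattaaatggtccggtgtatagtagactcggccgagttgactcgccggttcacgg
AT4G32030, chr4:15490940-15491060, coding exon, 434 bp past the gene start: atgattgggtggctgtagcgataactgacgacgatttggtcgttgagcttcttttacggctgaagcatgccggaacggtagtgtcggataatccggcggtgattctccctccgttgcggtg
AT1G04000, chr1:1028484-1028604, coding exon, 575 bp past the gene start: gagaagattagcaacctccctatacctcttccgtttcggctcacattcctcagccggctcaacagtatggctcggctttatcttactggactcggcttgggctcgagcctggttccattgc
GC content of these windows was 62.0% at AT1G23040, 40.5% at RD21B, 40.5% at AT5G28300, 43.0% at AT3G47800, 37.2% at ERD9 and 58.7% at AT3G22070. The 3 retained windows held 41.3%, 53.7% and 53.7%. The lost windows thus ranged from AT-rich to GC-rich, and only RD21B and ERD9 among them held a motif.

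Loss in brd1/2/13 was the common fate of BRM-GFP regions but not of wide acetylated ones. Of all BRM-GFP regions, 7185 had no mutant peak, which is 52.7%. Among the 3418 wide acetylated regions the share was 12.9% (95% exact binomial interval 11.8 to 14.0). It was 63.1% of 7160 narrower acetylated regions, 39.9% of 567 wide regions without a WT H4K5ac peak and 80.4% of 2493 regions that were neither. The number of 440 depends on the lists: it was 203 without BRM-GFP list 2, 706 without mutant list 2, 168 when all BRM lists were trimmed to the same number of peaks, and 2418 where a mutant peak had to cover at least 50% of a region to count. Since the rule used these lists, the shares are descriptions, and intervals over regions cover counting error only because regions are not replicates.

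The lost regions lay at the narrow and weak end of their class. Their median width was 1920 bp (1501 to 5347 bp) against 2653 bp for retained regions, and 251 of the 440 were under 2000 bp. The share lost was smaller in each wider class, from 22.7% at 1500 to 2000 bp to 0.87% at 4000 bp and over, where 5 of 574 regions were lost. The width comes from merging both lists: the best peak alone reached 1500 bp in list 1 in 188 lost regions, in list 2 in 376 and in both in 157. Just inside the width limit lay AT3G14750 (1501 bp), AT4G13550 (1503 bp) and AT1G48450 (1504 bp), with BRM-GFP folds over background of 4.18 and 4.90, 3.63 and 3.83, and 3.09 and 2.71. Just outside lay AT1G66240 (1499 bp, 5.54 and 3.68), AT5G44005 (1498 bp, 4.27 and 4.24) and AT5G44010 (1495 bp, 2.54 and 2.76).

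**Figure D1:**
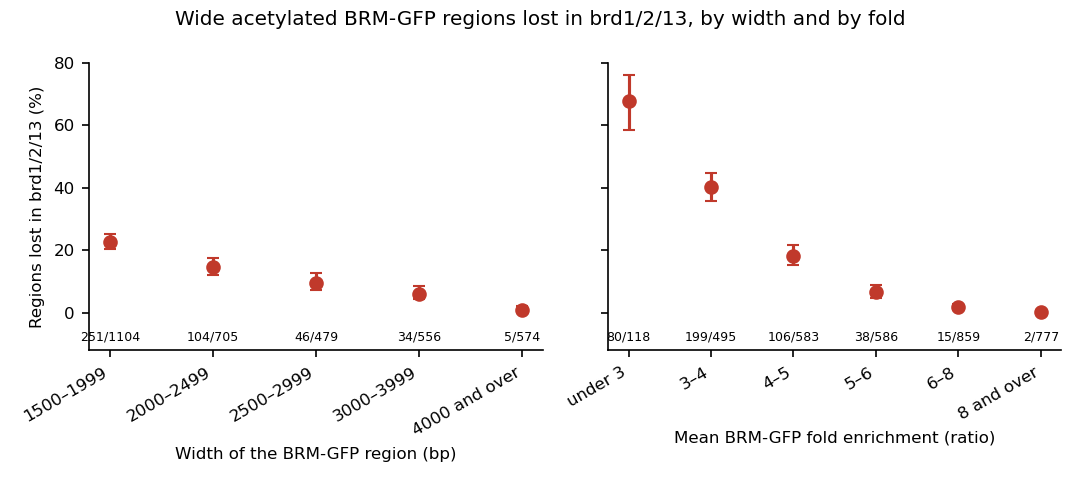
Percent of wide acetylated BRM-GFP regions without a peak of BRM-GFP in brd1/2/13, by region width in bp (left) and by mean BRM-GFP fold enrichment (right). Points are shares, bars are 95% exact binomial intervals, and the figures under the points are lost of all regions. The share goes from 22.7% to 0.87% with width and from 67.8% to 0.26% with fold.

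Fold enrichment, the ratio of reads at a peak's summit to the local background given by the peak caller, was lower in lost regions. The median BRM-GFP fold was 3.63 and 3.62 in both lists of the lost regions, and 6.54 and 6.64 in the retained ones. Over all 13638 BRM-GFP regions, most of them narrower, it was also 3.63 and 3.62. By mean fold, 80 of 118 regions below 3 were lost (67.8%), then 40.2% at 3 to 4, 18.2% at 4 to 5, 6.48% at 5 to 6, 1.75% at 6 to 8 and 0.26% at 8 and over, where 2 of 777 were lost. Single lost regions could still be strong: 55 had a mean fold of at least 5, and the highest was 17.9. In the retained regions the median fold of BRM-GFP in brd1/2/13 was 2.42 and 2.59, and mutant peaks covered 42.3% and 46.9% of their bases against 88.4% and 97.4% for BRM-GFP. Retained thus means that a peak was called, not that the level was kept.

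The lists bound what an absent peak can say. All 440 lost regions had a BRM-GFP fold above 1.69 and 1.71, the 5th percentiles of fold in the mutant lists. So had all 2578 retained regions and 13609 of all 13638 BRM-GFP regions, so this limit does not set the lost regions apart. Background coverage was estimated at 37.0 and 36.4 reads in the mutant lists and at 10.01 and 18.6 reads in the BRM-GFP lists, so the lists with fewer peaks (6131 and 7051 against 15562 and 16971) were not the shallower ones. The mutant lists stop at a q-value of 0.01 and the others at 0.05. Mutant peaks between these limits, if there were any, are not in the lists, so some regions may count as lost for that reason, which was not tested. The share of BRM-GFP signal that remains under an absent peak cannot be read from peak lists.

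Lost regions were spread over the genome. They numbered 122 on chromosome 1, 64 on chromosome 2, 88 on chromosome 3, 76 on chromosome 4 and 90 on chromosome 5, shares between 14.5% and 27.7% that lie close to those of all BRM-GFP regions (15.0% to 26.6%). The nearest mutant BRM peak lay at a median of 4629 bp (118 to 137698 bp), and in 5 regions within 500 bp. In 139 cases both neighbouring BRM-GFP regions were lost too, in 94 neither was, and the longest run of lost regions with such a wide member held 14. With 52.7% of all BRM-GFP regions lost, lost neighbours are frequent anywhere, so these counts do not show that the lost regions cluster.

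The strongest lost region by far lay on one of the mutated genes. It covered 2638 bp at the start of AT5G55040, annotated as a DNA-binding bromodomain-containing protein and known as BRD13, at chr5:22330831-22333468 of TAIR10, with the summit 237 bp past the start in the 5′ UTR. BRM-GFP folds were 18.5 and 17.3, BRD1-GFP 17.4 and 17.1, BRD2-GFP 10.4 and 10.7, BRD13-GFP 24.7 and 23.8, and BRD2-dBromo-GFP 8.17 and 7.26. WT H4K5ac stood at 4.72 and 4.88 and WT H4K8ac at 5.28 and 5.37. In brd1/2/13 not only BRM-GFP but also both acetylation marks had no peak in the region in either list, and the nearest peaks were 4059 and 4079 bp away for BRM-GFP, 2912 and 2844 bp for H4K5ac and 4277 and 4309 bp for H4K8ac. The brd13 mutation lies by its name in this gene, and its part in the missing mutant peaks was not tested. Reads of the gene and of a BRD13-GFP transgene cannot be told apart. The loci of the other mutated genes kept mutant BRM peaks, with folds of 2.11 and 2.38 at BRD1 and 2.61 and 2.51 at BRD2, and had mutant H4K5ac and H4K8ac peaks. Taken as a whole locus, AT5G55040 also had a mutant H4K5ac peak outside the region in each list (2.13 and 1.94). It had no mutant BRM-GFP or H4K8ac peak. Without the AT5G55040 region the highest mean fold among lost regions was 9.59.

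The next best-ranked lost regions lay between folds of 6 and 10. AT1G23040, a hydroxyproline-rich glycoprotein gene, had BRM-GFP folds of 9.54 and 9.65 over 2238 bp, with BRD13-GFP at 10.1 and 10.8 and BRD1-GFP at 7.50 and 5.79. ACA4, which encodes an autoinhibited Ca2+-ATPase, had 7.45 and 7.91. RD21B, a granulin repeat cysteine protease gene, had 8.18 and 7.402. These 3 regions all kept H4K5ac and H4K8ac peaks in both brd1/2/13 lists. At RD21B, for example, H4K5ac stood at 3.40 and 2.95 in WT and at 4.01 and 3.22 in brd1/2/13.

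AT5G28300, annotated as a duplicated homeodomain-like protein, carried BRM-GFP at 7.27 and 7.55 and BRD13-GFP at 9.89 and 10.3. AT3G47800, a galactose mutarotase-like gene, had 6.996 and 7.96 with BRD13-GFP at 8.38 and 8.83. AT1G56660 had 8.09 and 7.04 in a 2134 bp region whose H4K5ac was weak, at 1.83 in 1 WT list and with no peak in the other. The BRD13-GFP fold thus exceeded the BRM-GFP fold in both lists at AT5G28300 and AT3G47800 but not at AT1G56660, where it was 5.19 and 6.01. Over all lost regions the mean BRD13-GFP fold exceeded that of BRM-GFP in 274 of 440 (62.3%), compared with 68.5% of retained regions. Folds of different groups come from separate precipitations, so such an order describes the lists and not amounts of protein.

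CIP7, named for its interaction with the light-signalling repressor COP1, had BRM-GFP folds of 7.27 and 6.94. AT4G36860, a LIM domain protein gene, joined strength and width, with 7.72 and 6.84 over 5093 bp and the highest BRD13-GFP folds after AT5G55040 among these regions, 13.3 and 13.8. Its H4K5ac was 4.01 and 3.49 in WT and 4.62 and 4.16 in brd1/2/13. ERD9, a glutathione S-transferase gene whose region also held the start of its relative GSTU18, had 6.36 and 6.89. EIF4A1, a translation initiation helicase gene sharing its region with the start of AT3G13930, had 6.36 and 6.23, and KIPK, a kinase gene, had 8.18 and 6.13. The EIF4A1 region was acetylated in every list, with H4K8ac at 3.32 and 3.34 in WT and 3.90 and 3.82 in brd1/2/13.

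**Figure D2:**
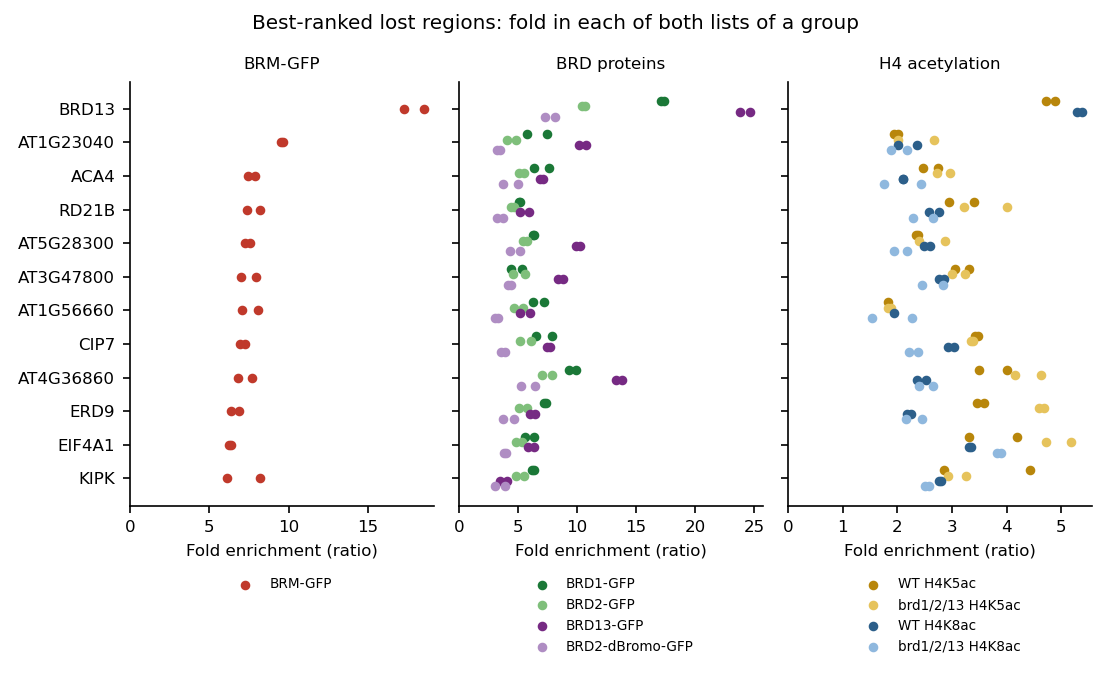
Fold enrichment (ratio, x axis) of the 12 lost regions with the best BRM-GFP ranks, 1 line per region named by its main gene, with 1 point for each of both lists of a group. BRM-GFP, BRD proteins and H4 acetylation have separate panels and scales. BRD13 (AT5G55040) stands apart at BRM-GFP folds of 18.5 and 17.3 and is the only region shown without acetylation peaks in brd1/2/13.

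The widest lost regions were of moderate height. The widest, 5347 bp at AT1G07280, a tetratricopeptide repeat gene, had BRM-GFP folds of 4.36 and 4.59 and BRD13-GFP folds of 9.71 and 10.7. AT1G16860 followed AT4G36860 with 4852 bp and folds of 5.09 and 5.77, and its region also held the starts of AT1G16840 and AT1G16850. CIPK20, a gene for a kinase that binds calcineurin B-like calcium sensors, had 4334 bp with BRM-GFP at 4.63 and 3.83 and BRD13-GFP at 11.4 and 10.7. A region of 4213 bp at AT3G47341 reached the start of ASN1, which encodes an asparagine synthetase, with 3.998 and 4.24. The list ended with MO1, a monooxygenase gene (3984 bp, 4.91 and 4.54), AT4G36850 (3970 bp, 4.72 and 4.54) and NAC2, a NAC transcription factor gene (3955 bp, 4.997 and 4.70). In this group of 8 the BRD13-GFP fold was above that of BRM-GFP in both lists in all regions but AT1G16860 and NAC2, where the lists were split.

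For scale, the best-ranked retained regions started far higher. AT3G10040, a DNA-binding transcription factor gene, had BRM-GFP folds of 24.3 and 27.4 and in brd1/2/13 of 4.05 and 5.63. GATA1, a zinc finger transcription factor gene, had 22.3 and 22.8 and in brd1/2/13 4.95 and 6.07. AT4G32030, in a region of 9705 bp with the start of KNAT5, had 18.9 and 19.7 and in brd1/2/13 4.11 and 4.81. AT5G15120, AT1G04000 and AT2G36220 had mutant folds between 3.48 and 5.29.

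The question of whether the bromodomain subunits occupied the lost regions was answered by lists the rule did not use. A BRD1-GFP peak was present in 100% of lost regions in both lists, a BRD2-GFP peak in 99.8% and 99.3%, and a BRD13-GFP peak in 99.8% and 98.4%. In 430 of 440 (97.7%) all 6 lists had a peak, compared with 2577 of 2578 retained and 398 of 400 partly retained regions, and with 86.8% of all BRM-GFP regions. The lost regions were thus the lowest of the wide acetylated classes. Levels were lower than in retained regions: the median BRD1-GFP fold was 4.18 and 3.86 against 7.04 and 6.44. For BRD2-GFP it was 3.39 and 3.33 against 5.44 and 5.44, and for BRD13-GFP 4.19 and 4.24 against 7.98 and 7.97. In each group both lists of the lost regions lay below both of the retained ones, by more than the spread between lists. The ratio of lost to retained medians was lowest for BRD13-GFP (0.525 and 0.532), followed by BRM-GFP (0.556 and 0.546), BRD1-GFP (0.593 and 0.599) and BRD2-GFP (0.623 and 0.613).

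BRM-GFP height moved with these differences. Among regions with a mean BRM-GFP fold of 3 to 4, the median folds of 199 lost and 160 retained regions were 3.80 and 4.33 for BRD1-GFP, and those of BRD13-GFP and BRD2-GFP were 4.103 and 4.62, and 3.24 and 3.69. The gap was thus smaller than over all folds, although BRM-GFP itself still differed in this class (3.46 and 3.63). BRD1-GFP, BRD2-GFP and BRD13-GFP were also lower in lost regions at 4 to 5, 5 to 6 and 6 to 8. For BRD13-GFP the medians were 4.50 and 5.81 at 4 to 5, 4.96 and 6.86 at 5 to 6, and 6.38 and 8.35 at 6 to 8. The lowest and the highest class did not keep this order. Below a fold of 3, with 80 lost and 16 retained regions, BRD1-GFP was lower in the lost ones (3.25 and 3.41), but BRD2-GFP (2.81 and 2.61) and BRD13-GFP (3.47 and 3.09) were higher. At 8 and over the 2 lost regions were also higher in all 3. Across the lost regions the log2 folds of BRM-GFP correlated with those of BRD2-GFP (Pearson r = 0.57, n = 437), BRD1-GFP (0.54, n = 440) and BRD13-GFP (0.43, n = 433), and hardly with WT H4K5ac (-0.06, n = 393) or WT H4K8ac (-0.01, n = 357). These are descriptions across regions of the same libraries.

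BRD2-dBromo-GFP marked nearly the same regions but less of each. A peak was found in 97.5% and 98.9% of lost regions, and in 426 of 440 by both lists. Of the 437 with BRD2-GFP peaks in both lists, 1 (0.229%) had none in either BRD2-dBromo-GFP list, against 1 of 2578 retained regions (0.0388%), 2 of 400 partly retained ones (0.5%) and 1.67% of all such BRM-GFP regions. That region was AT4G13550, a putative triglyceride lipase gene, where BRD2-GFP was weak at 2.28 and 2.06. The bases of lost regions covered by peaks were 81.3% and 77.1% for BRD2-GFP (79.2% ± 3.03, SD, n = 2) and 61.9% and 62.9% for BRD2-dBromo-GFP (62.4% ± 0.734, SD, n = 2), so the lists of the groups did not overlap. The difference was -16.8 percentage points (SE 2.204, two-sided exact permutation test p = 0.33, the smallest p that 2 against 2 allows). In partly retained regions coverage was 84.1% and 81.0% against 67.9% and 68.6%. In retained regions it was 90.6% and 88.3% against 79.1% and 80.5%. By mean BRM-GFP fold, BRD2-dBromo-GFP covered 51.9% of lost and 53.9% of retained bases below 3, and 60.3% and 69.6% at 3 to 4. At 4 to 5 it covered 68.1% and 74.0%, at 5 to 6 67.4% and 75.5%, and at 6 to 8 74.0% and 79.7%. At 8 and over, with 2 lost regions, the order turned (93.0% and 85.2%). Over all folds, the gap between lost and retained regions was 7.21 points wider for BRD2-dBromo-GFP (SE 0.970, exact permutation p = 0.33). Its direction in median fold was the opposite: 3.03 and 2.84 against 4.58 and 4.32, a gap 0.561 smaller than that for BRD2-GFP (SE 0.0435, exact permutation p = 0.33). With 8 such tests the adjusted p was 0.381 for each of these, and no comparison of 2 lists with 2 can pass 0.05.

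**Figure D3:**
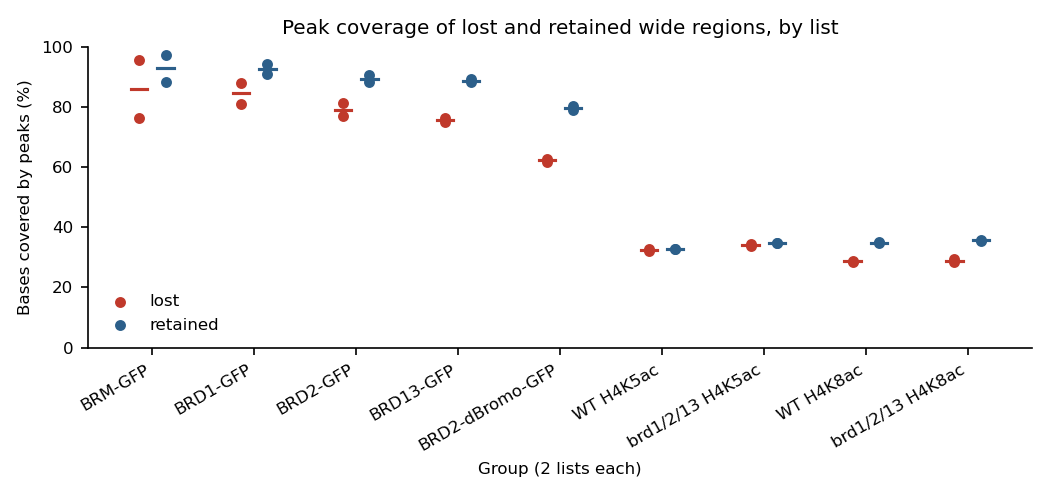
Percent of the bases of lost (red) and retained (blue) wide regions covered by peaks, with 1 point per list and a line at the mean of both lists, for 9 groups. BRD2-dBromo-GFP covers 61.9% and 62.9% of lost regions and 79.1% and 80.5% of retained ones, while WT H4K5ac covers 32.0% to 32.9% of both.

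Both acetylation marks had lower folds in lost than in retained regions, and H4K8ac also covered fewer of their bases. WT H4K5ac, on which the regions were selected, had median folds of 3.37 and 3.29 against 3.82 and 3.77 and covered 32.0% and 32.7% of the bases against 32.7% and 32.9%. At like widths its median fold was 3.70 against 4.07 at 1500 to 2000 bp, 2.85 against 3.70 at 2500 to 3000 bp and 2.59 against 3.68 at 3000 to 4000 bp. WT H4K8ac, which the rule did not use, was present in 85.0% and 87.5% of lost regions (86.3% ± 1.77, SD, n = 2) against 96.8% and 96.7% of retained ones, and covered 28.6% and 28.9% against 35.03% and 34.7%. Both lists lay on the same side, apart by more than the spread between lists. The size of the difference in coverage, -6.10 points, depended on width: it was -1.28 at a minimum width of 1000 bp and -10.7 after weighting retained regions to the widths of the lost ones. It was -10.9 where a mutant peak had to cover at least 50% of a region. Of the lost regions, 357 had H4K8ac peaks in both WT lists, 45 in 1 and 38 in none.

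Acetylation in brd1/2/13 was measured at the same places to see whether the marks left together with BRM. H4K8ac covered 29.3% and 28.5% of the lost regions in brd1/2/13, a difference of 0.126 percentage points from WT (SE 0.468, exact permutation p = 1), with overlapping lists. Where all 4 H4K8ac lists had a peak, the median log2 ratio of mutant to WT fold was 0.02 (n = 334), and over all BRM-GFP regions 0.01. For H4K5ac it was 0.05 (n = 378), and over all BRM-GFP regions 0.07. H4K5ac covered 34.3% and 33.8% of the lost regions in brd1/2/13. With 2 lists a group, a p of 1 does not show that the levels were the same, and peak folds are ratios to each sample's own background.

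Few lost regions lost a mark. Of the 357 regions with WT H4K8ac in both lists, 6 (1.68%, 95% exact interval 0.619 to 3.62) had no H4K8ac peak in either brd1/2/13 list, against 0.806% of all such BRM-GFP regions and 0.203% of such retained regions. Of the 393 with WT H4K5ac in both lists, 7 (1.78%, 0.719 to 3.64) had none in brd1/2/13, against 0.364% of all such BRM-GFP regions and 0.401% of such retained ones. AT5G55040 was the one region in both sets. Without it, 5 of 356 (1.40%) lost H4K8ac. The exact intervals of the retained shares were 0.066 to 0.473 for H4K8ac and 0.193 to 0.737 for H4K5ac. Among such partly retained regions the shares were 1.42% for H4K8ac and 0.813% for H4K5ac. Intervals over regions cover counting error only, so whether they overlap sets no class apart. The shares are counts of regions in the same 4 lists of a mark, with no test over samples.

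The other regions without mutant H4K8ac were weak in that mark to begin with. They were PIT1, a RING-type zinc finger gene (WT H4K8ac 1.94 and 1.80), LAS, a GRAS transcription factor gene required for axillary meristems (1.87 and 1.70), AT5G57887 (1.97 and 2.06), AT3G47341 at ASN1 (1.77 and 1.63) and AT5G14470 (2.00 and 1.80), whereas AT5G55040 had 5.28 and 5.37. LAS kept H4K5ac, at 2.38 and 2.05 in WT and 2.43 and 2.01 in brd1/2/13. The regions without mutant H4K5ac were AT4G02170 (WT H4K5ac 2.50 and 2.66), AT1G69160 (1.75 and 1.58), SEH, a soluble epoxide hydrolase gene (1.81 and 1.72), KAN3, a KANADI transcription factor gene (1.77 and 1.76), HTH, named HOTHEAD for its fused floral organs (1.75 and 1.52), and AT5G60215 (1.83 and 1.76). Each of these WT folds was below the medians of the lost regions.

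A gain of H4K8ac was seen in few lost regions. Of the 38 lost regions without a WT H4K8ac peak, 3 (7.89%, 95% exact interval 1.66 to 21.4) had one in both brd1/2/13 lists. The share was 3.63% of all such BRM-GFP regions, 34.0% of the 50 such retained regions and 35.3% of the 17 such partly retained ones. The 3 lost regions were AT4G25410, a bHLH gene, with mutant H4K8ac of 1.59 and 1.94, SCRL12 with 2.90 and 2.72, and AT3G22935 with 1.496 and 1.84. The SCRL12 region lay in intergenic sequence 2110 bp past the gene's start and carried mutant H4K5ac at 5.03 and 3.95, against 1.94 in 1 WT list and no peak in the other.

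Position relative to genes differed between lost and retained regions. Each region was assigned a main gene, the protein-coding or miRNA gene whose start lay nearest to the mean summit. The summit lay in a coding exon in 127 of 440 lost regions (28.9%) against 45.8% of retained ones, in a 5′ UTR in 28.9% against 28.5%, within 1 kb upstream of a gene in 24.5% against 13.7%, and in an intron or other part of a gene body in 7.27% against 3.96%. It lay upstream of the main gene's start in 32.5% against 21.5%. At like mean BRM-GFP fold this order did not hold throughout. The upstream share was 30.7% against 40.6% at 3 to 4, 18.4% against 29.01% at 5 to 6 and 6.67% against 19.7% at 6 to 8. It was nearly equal at 4 to 5 (32.1% and 31.1%). Below 3, with 16 retained regions, it was higher in lost ones, and at 8 and over, with 2 lost regions, it was lower. The median distance past the start was 221 and 226 bp in the 2 lists for lost and 280 and 275 bp for retained regions. The order of these distances turned when retained regions were weighted to the BRM-GFP folds of the lost ones: the difference went from -54.3 to 47.8 bp.

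Compared with the 4515 narrower acetylated regions that were lost, the wide lost regions lay less closely on gene starts. The summit was within 500 bp of the main gene's start in 63.2% against 89.1%, and in a 5′ UTR in 28.9% against 47.4%. It was upstream of the start in 32.5% against 17.1%.

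The lost regions also held fewer gene starts. No gene start lay in 52 (11.8%), 1 in 301 and at least 2 in 87 (19.8%), against 5.62% without a start and 32.6% with at least 2 among retained regions. At like mean BRM-GFP fold the share without a start did not keep this order. It was 16.25% against 37.5% below 3, 14.6% against 11.25% at 3 to 4, 6.60% against 9.14% at 4 to 5 and 7.89% against 5.76% at 5 to 6. No lost region at a fold of 6 and over, or at a width of 3000 bp and over, was without a start. The difference for at least 2 starts was -12.8 percentage points, -7.53 without BRM-GFP list 2, -3.97 after weighting retained regions to the widths of the lost ones, and 3.33 where a mutant peak had to cover at least 50% of a region. A divergent pair of starts was held by 13.9% against 19.2%, and the whole main gene lay inside the region in 12.5% against 37.0%. The median length of the main gene was 2326 against 2196 bp.

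Around gene starts, each group's peaks covered a smaller share of the lost than of the retained regions at its highest point. BRM-GFP peaks covered 88.0% of lost regions at 200 bp past the start, their highest point, and 96.8% of retained ones. BRD2-GFP was highest at -100 bp in lost (88.8%) and at 100 bp in retained regions (97.1%), and BRD13-GFP at 100 bp in both (86.3% and 96.1%). BRD1-GFP was highest at the start itself in lost (91.1%) and at 100 bp in retained regions (97.8%). BRD2-dBromo-GFP had its highest point, 80.9%, at the start in lost and at 100 bp in retained regions, and stood at 32.0% at 500 bp, compared with 93.7% at the start and 70.9% at 500 bp in retained regions. At 500 bp BRD2-GFP covered 58.9% of lost and 85.8% of retained regions, and BRD1-GFP 67.3% and 89.6%. WT H4K8ac was highest at 500 bp, with 67.7% against 84.4%. Measured from the BRM-GFP summit, acetylation summits lay downstream, at medians of 149 and 144 bp for H4K5ac and 197 and 213 bp for H4K8ac, and BRD summits upstream, at -103 and -96.5 bp for BRD1-GFP and -140 and -143 bp for BRD13-GFP. The order from BRD summit to BRM summit to acetylation summit was the same in retained regions.

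**Figure D4:**
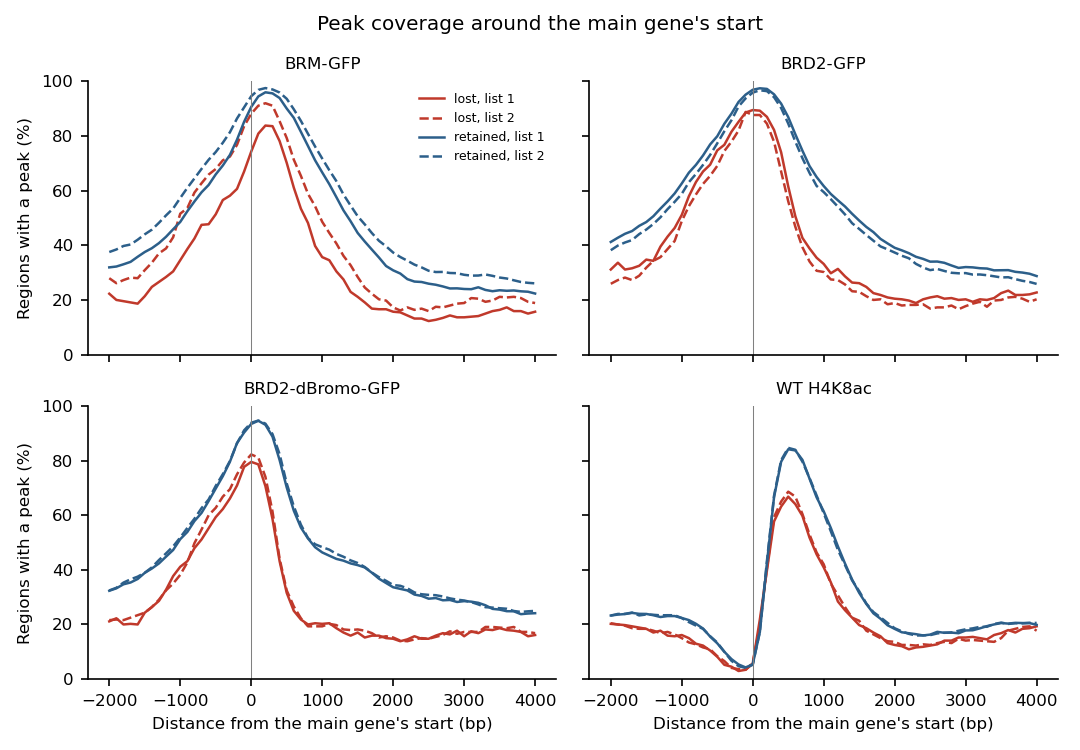
Percent of lost (red) and retained (blue) regions with a peak at each distance (bp) from the start of their main gene, along its strand, for BRM-GFP, BRD2-GFP, BRD2-dBromo-GFP and WT H4K8ac. Solid and dashed lines are both lists. At 500 bp BRD2-dBromo-GFP covers 32.0% of lost and 70.9% of retained regions, and BRD2-GFP 58.9% and 85.8%.

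The sequence under the summit was poorer in GC in lost regions. Within 100 bp on each side of the summit of each list GC content averaged 38.8% and 39.5% in lost regions (39.1% ± 0.492, SD, n = 2 lists), 43.1% and 43.3% in retained ones and 40.4% and 40.6% in all BRM-GFP regions. The spread among lost regions was wide (SD 7.61 over 440). The gap was smaller within each place: with the summit in a coding exon the means were 45.6% and 48.4%, in a 5′ UTR 37.0% and 38.8%, and upstream of a gene 33.3% and 35.7%. By height, the means were 36.9% and 41.2% below a fold of 3, 37.3% and 39.2% at 3 to 4, 39.0% and 39.1% at 4 to 5, 40.6% and 41.8% at 5 to 6 and 40.2% and 42.6% at 6 to 8, so the gap differed between classes without an order. Weighting retained regions to the folds of the lost ones left -1.96 of the -4.08 percentage points. Whole regions differed less, at 35.02% against 36.2%.

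**Figure D5:**
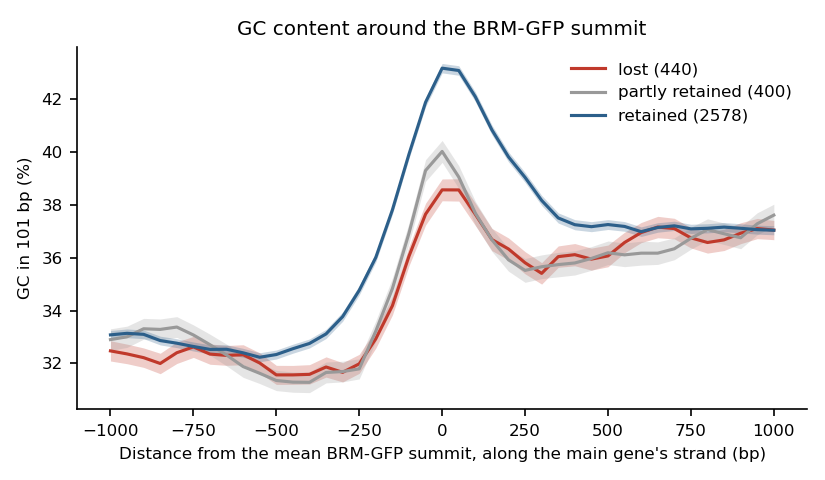
Mean GC content (%) in windows of 50 bp to each side by distance (bp) from the mean BRM-GFP summit along the strand of the main gene, for lost, partly retained and retained wide regions. Bands are 1 SE over regions. GC is highest at the summit in each class, at 38.6% in lost, 40.03% in partly retained and 43.2% in retained regions.

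Short motifs were counted within 100 bp on each side of the mean summit, on both strands and with overlaps between motifs allowed, and are set beside 27769 gene promoters of the same length. A run AAAAAAAA was found in 18.4% of lost, 11.4% of retained and 14.1% of all BRM-GFP regions, and in 24.1% of promoters. TATAAA was found in 22.0%, 15.2%, 18.7% and 41.2%. The GAGA repeat (GAGAGAGA) was found in 11.4%, 16.4%, 15.5% and 4.18%, and the G-box (CACGTG) in 5.91%, 8.53%, 8.59% and 5.61%. The telo-box (AAACCCTA) stood at 4.32%, 4.11%, 6.52% and 3.79%, site II (TGGGCC) at 3.64%, 3.34%, 4.74% and 12.5%, the evening element (AAAATATCT) at 1.59%, 0.504%, 0.975% and 1.92%, and CTCTGTTT, a motif bound by the demethylase REF6, at 6.36%, 8.18%, 5.69% and 2.80%. A tract, TATAAA and the evening element were thus more frequent in lost than in retained regions, and GAGA repeat, G-box and CTCTGTTT less frequent. Site II and telo-box differed little. Whether these differences go with GC content or with the place of the summit was not tested. A match is a description of the letters and not a binding site.

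Genes were counted as having a lost region where it overlapped their body or the 1 kb upstream of their start. This held for 671 of 27770 genes (2.42%), and 4607 genes (16.6%) had a retained wide region. The lost regions had 438 main genes, 8 of them miRNA genes. In 20 gene lists of pathways and complexes, the number of members with a lost region ranged from 0 to 4, so the lists are described by their members and no list is set apart.

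Vegetative phase change, the passage from juvenile to adult leaves, had 4 of 29 genes with a lost and 7 with a retained region. It is timed by miR156, which represses SPL transcription factors, and by miR172, which represses AP2-like factors. MIR156B had BRM-GFP folds of 5.09 and 3.93, MIR172B 3.63 and 3.22, and SPL3 2.998 and 2.86 in a region whose main gene was its neighbour AT2G33800. MIR172C had 3.82 and 3.88 in a region with main gene AT3G11440. The retained members stood higher, as MIR156C with 7.81 and 6.48, SPL2 with 9.09 and 9.29, SPL6 with 5.63 and 5.72, and SPL13A with 9.36 and 8.37. The folds of the 2 sets did not overlap among these 8 named genes. Over all wide acetylated regions they did overlap: 350 retained regions had a mean fold of 4 to 5, and 55 lost ones had at least 5. Loss was there only more frequent at lower folds, so the split of these genes is a description.

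Light signalling had 3 of 24 genes with a lost and 12 with a retained region. CRY1, a blue light receptor, had 4.36 and 4.54, and its relative CRY2 was retained at 6.09 and 5.62. HYH, a bZIP factor related to HY5, had 2.82 and 3.01, and HY5 was retained at 4.63 and 4.19. PIF4, a bHLH factor that promotes elongation, touched a lost region of 1568 bp with 2.82 and 3.22, whose main gene was AT2G43020, and had a stronger retained region of its own with 6.18 and 6.28. The phytochrome genes PHYA (9.45 and 7.61), PHYB (4.997 and 5.26) and PHYD (3.18 and 3.42) were retained, the last at a height where loss was frequent.

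Cytokinin had 3 of 20 with a lost and 7 with a retained region. ARR6 and ARR8, type-A response regulators that dampen the signal, had 4.18 and 4.65, and 4.09 and 3.73, and ARR8 also had a stronger, partly retained region (4.91 and 4.39). AHP5, a phosphotransfer protein gene, had 5.45 and 5.77 in a region with main gene AT1G03410. Retained were the receptor gene AHK3 (6.72 and 6.84), the type-B regulator genes ARR1 (10.9 and 10.8) and ARR10 (3.18 and 3.73), and 4 type-A genes, ARR4 (8.63 and 9.24), ARR5 (5.09 and 5.67), ARR7 (7.81 and 6.23) and ARR9 (3.91 and 4.13). More type-A genes had a retained than a lost region, and ARR9 was retained at a fold below that of ARR6.

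Single members came from other lists. GA3OX1, which makes bioactive gibberellin, had 2.998 and 3.01 and was the 1 lost member of 18 gibberellin genes, of which 10 were retained, GID1B at 10.7 and 10.9 among them. RVE8, a MYB-like clock factor gene, touched a 3646 bp region with main gene AT3G09580 at 4.91 and 4.29. PSAD-2, a photosystem I subunit gene, had 3.54 and 4.34. Of 21 SWI/SNF subunit genes, AT5G55040 and BCL7A had a lost region, and BRM itself (14.7 and 16.1), BRD2 and BRIP1 a retained one. BCL7A stood at 2.998 and 3.57 in a region whose main gene was MIR8176, and had strong WT H4K5ac of 7.17 and 7.98. No gene of the lists for flowering time, abscisic acid, auxin, ethylene, brassinosteroid, jasmonate, TOPLESS corepressors, Polycomb, histone acetylation enzymes, GTE readers, heat response, housekeeping or floral identity had a lost wide region, and between 1 and 11 genes of each of them had a retained one. Over all genes 2.42% had a lost and 16.6% a retained wide region. An absence from lists this short therefore sets none of them apart.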

How the data were processed

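MACS2 peak lists of 20 immunoprecipitated samples were analysed; the 10 inputs had no list used here. The members, gene lists, motifs and comparisons were chosen with earlier results of these data known. Per the submitters' processing notes, the authors used Bowtie, MACS2 2.1.1, deepTools and the TAIR10 build. Peaks were called per sample. The Bowtie version, read filters and the way inputs entered the calls are not stated in the sources used here. The deposited fold enrichment is a ratio at each peak's summit. The deposited −log10 p and −log10 q are those of the same summit, and the deposited score was 10 times the −log10 q in 100% of peaks. Fold is relative to a sample's own background, so folds of different samples were set side by side with no model across regions.

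Peaks on chromosomes 1 to 5 were merged at an overlap of 1 bp, and a region took the fold of its best peak in each list. Depth was not read from the lists directly: background coverage was estimated from fold and p of peaks with −log10 p under 100, where MACS2's whole-number pileup was solved within 0.02, and ranged from 10.0 to 38.1 reads. Genes and sequences came from TAIR10.1 of RefSeq, whose chromosome lengths hold every peak. Of 396 symbols in the lists, 385 matched, 21 of them through hand-given locus names. On simulated data 1000 of 1000 regions were classified as planted.

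Groups of 2 lists were compared by two-sided exact permutation tests over samples with Benjamini-Hochberg adjustment over 8 tests. Regions were not treated as replicates in these tests. Intervals and SE bands over regions describe counting error or spread among regions only. Same-numbered samples did not deviate together (correlations from -0.02 to 0.05), so samples were not paired. Named regions were the 12 best by the worse BRM-GFP rank, the 8 widest, the 6 best retained, up to 4 members per gene list and status, and each region that lost or gained a mark, which were chosen after their values were seen. Python 3.11.15, numpy 2.4.6, pandas 2.3.3, scipy 1.17.1 and matplotlib 3.10.9 were used.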

Additional observations from a re-analysis of the deposited data

Results flagged for a closer look

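Peaks on the chloroplast genome were present in both lists of BRM-GFP in brd1/2/13, 2 in list 1 and 7 in list 2, and in none of the other 18 lists. They lie outside the regions compared above and were not used; their part in the results was not tested.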

How the results depend on the processing

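Of 179 values recomputed for 11 results, 120 were counted as the same, 50 as moved and 9 as turned. The cause of the changes was not tested. Same meant within the SD over lists or the interval of the main value, or within a set factor for the number of regions. For the H4K8ac difference of brd1/2/13 from WT it meant the same sign only. Some of the 120 could not change, as the number and share of lost regions where only retained regions were weighted. The number of lost regions, 440, went to 168 (6.23% of wide acetylated regions) with equal numbers of peaks in all BRM lists, to 2418 (70.7%) where a mutant peak had to cover at least 50% of a region, and to 1195 (21.6%) and 189 (8.17%) at minimum widths of 1000 and 2000 bp. Leaving out 1 list gave 203 to 706 regions (7.99% to 20.7%), the lowest without BRM-GFP replicate 2 and the highest without replicate 2 of BRM-GFP in brd1/2/13. All 3418 wide acetylated regions passed a BRM-GFP q of 0.01, so that limit could not change the number, which was 435 where mutant peaks within 500 bp counted, and 444 with H4K8ac in place of H4K5ac.

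The values that follow are lost minus retained, in percentage points or bp. With equal numbers of peaks, BRD2-GFP was 0, BRD2-dBromo-GFP turned to 0.0217 and distance was -30.8. With 50% cover they were -0.0827, -0.558 and -80.8, with WT H4K8ac cover -10.9, GC -3.72 and at least 2 starts turned to 3.33. At 1000 bp the values were BRD13-GFP -2.94, BRD1-GFP -0.418, BRD2-dBromo-GFP -3.09, BRD2-GFP -1.09, H4K8ac cover -1.28, distance -63.5 and GC -3.53. At 2000 bp they were BRD2-dBromo-GFP -0.716, H4K8ac cover -7.73, distance -40.0 and GC -4.63. With H4K8ac as the selecting mark, BRD2-GFP was -0.788 and H4K8ac cover -5.14. Weighting to widths gave H4K8ac cover -10.7, distance -18.3, GC -3.58 and at least 2 starts -3.97. Weighting to BRM-GFP folds, added after the data were seen, turned BRD13-GFP to 0.182 and distance to 47.8 and gave H4K8ac cover -4.71 and GC -1.96. Without 1 list the ranges were BRD1-GFP -0.174 to 0.0369, BRD13-GFP -1.55 to -0.188, BRD2-GFP -0.739 to -0.227, BRD2-dBromo-GFP -2.46 to -1.02, H4K8ac cover -8.45 to -5.29, distance -85.0 to -51.0, GC -4.88 to -3.54 and at least 2 starts -12.7 to -7.53.

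The H4K8ac difference of brd1/2/13 from WT, 0.126 points, turned to -0.666 with equal peaks, -0.108 at 2000 bp and -0.283 with H4K8ac as the selecting mark, and ranged from -0.311 to 0.564 without 1 list. With the replicate block it was 0.126 (SD 0.855, exact permutation p = 1, smallest p 0.5). Leaving out the AT5G55040 region, added after the data were seen, changed no direction.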
